A study of Mus musculus with 12 samples.

Results

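The mRNAs of the cytosolic ribosomal proteins were followed in RNA bisulfite sequencing of mouse neural stem cells grown at different folic acid concentrations. Members were chosen by gene symbol, namely Rpl or Rps followed by a digit, Rplp0, Rplp1, Rplp2 and Rpsa, without the S6 kinase genes (Rps6k), Rps19bp1, Rpl7l1, Rpl22l1 and symbols of pseudogenes (-ps). Of the 90 annotated symbols that met this rule, 87 had a cytosine listed in at least 1 library, among 17187 nuclear genes in all, and 85 to 87 were listed in any one library. The large subunit contributed 50 of them and the small subunit 37. The annotation calls 80 of the 87 protein-coding, while Rpl6l, Rpl32l, Rpl37rt, Rps3a2, Rps3a3, Rps4l and Rps12l1 are annotated as pseudogenes. Rpl3l, Rpl10l and Rpl39l, paralogs of restricted use, had no listed cytosine.

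The cells came from the subventricular zone of wild-type male C57BL/6 mice aged 6 to 8 weeks and were cultured with EGF and bFGF. They received 1.5 µM (LF), 10 µM (MF) or 80 µM (HF) folic acid for 4 days, all groups otherwise sharing one medium. Poly(A) mRNA of whole lysates made the total libraries LF, MF and HF, and poly(A) mRNA of the pooled heavy fractions of sucrose gradients, where mRNAs carry many ribosomes, made the polysome libraries pLF, pMF and pHF, with 2 libraries in each of the 6 groups. For the polysome preparation the methods also describe a short incubation of the cultures with cycloheximide, to stabilize ribosomes. They do not describe it for the total libraries, so polysome and total mRNA may also differ by this treatment. Bisulfite turns unmethylated cytosine into a base read as T, so a read that still shows C at a position is called unconverted. The methods describe the 2 libraries of a group as biological replicates, but nothing says that they came from separate animals or cultures, and p-values here measure only the spread between these libraries.

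The lists held 797260 to 2071190 cytosines per library, with a median coverage of 335 to 605 reads in 11 libraries and 920 in pHF replicate 2, which had the fewest cytosines. Both libraries labelled HF also stood apart, and they are called HF-labelled throughout. Neural stem cell markers checked the cell type: Nes, Vim, Fabp7, Pax6, Slc1a3 and Egfr were listed in all 12 libraries, Gfap in 5, and Sox2 not under its own name, since cytosines of its exon were listed under the overlapping Sox2ot. The summed median coverage of these markers was 51302.5 to 60629 in LF and MF and 32521 to 37188 in the HF-labelled libraries, that of 5 mesenchymal markers of 7 was 5450.5 to 7168 and 8832 to 10300, and that of the oligodendrocyte lineage markers was 1829 to 2176 and 822.5 to 898. These sums are reads not scaled for library depth. The median gene had 259 to 301 reads in LF and MF and 228.5 and 210 in the HF-labelled libraries. In pMF, with 179.5 and 174 reads for the median gene, the neural stem cell markers summed to 35928.5 to 39504.5. Endothelial markers were at 0 in LF and MF, where no cytosine was listed, and at 49.5 to 84 in the HF-labelled libraries. These values rest on very few positions. Pecam1 and Kdr were listed in 2 libraries each, with means of 0.667 and 0.25 cytosines per library, and Cdh5 and Tek in none. Of the 6 neuron markers Tubb3 (293 to 666.5 reads) and Map2 (116.5 to 748.5 reads) were listed in all 12 libraries and Dcx in 8, while Rbfox3, Syt1 and Snap25 were listed in none.

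Each ribosomal protein occupies a defined place in the large (60S) or small (40S) subunit, and cells need nearly all of them in matched amounts. Their mRNAs are short and abundant, and most begin with a 5′ terminal oligopyrimidine (TOP) motif, a cytosine followed by an unbroken run of pyrimidines. Through this motif mTORC1 and the cap-binding protein LARP1 move ribosomal protein mRNAs together into or out of polysomes when growth signals or nutrients change. The genome also carries many processed copies of these genes, which makes the origin of a short read hard to place.

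Abundance was measured in 2 ways, because the lists hold a cytosine only where at least 1 read was unconverted. The first was the median coverage over all listed cytosines of a gene with a level below 5%, given for 79 of the 87 members, those with a mean of at least 20 such cytosines per library. The other 8 (Rpl17, Rpl32l, Rpl35, Rpl39, Rps12l1, Rps3a2, Rps3a3 and Rps4l) were too sparse, Rps4l for instance being listed in 8 libraries with at most 4 such cytosines and medians of 24 to 61.5 reads. Which cytosines are listed changes between libraries, and the median moves with it. For Rpl23 the listed median was 360 in pMF replicate 1 and 6073.5 in pMF replicate 2, but over the same 63 positions it was 8087 and 11227. The second measure therefore used only cytosines listed below 5% in all 12 libraries, called shared cytosines here, which exist for 66 members (5497 of 66295 positions) and for 2217 genes in all. For Rpl10, Rpl15, Rps12, Rps27a and Rpl6l they amount to 1 position each. Both measures were set relative to the median gene of the same library, so a higher or lower value means higher or lower than the typical gene, and in bulk cultures fewer cells of one type cannot be told apart from less RNA per cell.

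Many members were among the deepest genes of every library, but some lay below the median gene. At the shared cytosines of the 61 members with at least 5, the mean of the MF libraries ran from 442 reads per position for Rpl34 to 42517 for Rps24, a ratio of 96.3, with a median of 15363 reads against 2787 for all genes. Within single libraries the ratio of the highest to the lowest of these 61 was 70.1 to 105 in LF and MF, 272 and 347 in the HF-labelled libraries and 13.5 to 32.4 in the polysome libraries. Of the 2217 genes with shared cytosines, the 100 deepest of a library included 29 to 39 ribosomal protein genes. Over all listed cytosines the lowest protein-coding member in MF was Rpl27, a large subunit protein, at 122.75 reads. The median gene of the MF libraries had 283.5 and 301 reads. The highest member was Rps14, a small subunit protein, at 38290. The members held 4.42% to 4.90% of the summed gene coverage in LF and MF, 4.05% to 4.49% in the HF-labelled libraries and 5.89% to 6.56% in polysome mRNA. The deepest member position of a library had 47789 to 49682 reads, close together in libraries of different depth, so the deepest positions may be capped.

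Low folic acid went with no called change of any ribosomal protein mRNA in either pool. Between LF and MF, 0 of 79 members passed an adjusted p of 0.05 over all listed cytosines (limma), where 0% of all 9866 genes did, and 0 of 66 passed at the shared cytosines, where 0% of all 2217 genes did. At an unadjusted p of 0.05 there were 4 of 79 members beside 2.47% of all genes and 8 of 66 beside 1.71%, and edgeR called 0. The median difference of the members was 0.13 on the log2 scale against 0.04 for all genes, and 0.05 against 0.01 at the shared cytosines. Between pLF and pMF again 0 members passed by either measure, against 0.0922% of all genes over listed cytosines (0.0615% higher, 0.0307% lower) and 0% at the shared ones, although 3 members passed at the shared cytosines without pLF replicate 2. Rps6, the substrate of S6 kinase, had scaled coverages of 12105 and 12428 in LF, 14825 and 13207 in MF, 5096 and 6851 in pLF and 5794 and 5043 in pMF. The doses overlapped in the polysome pool, but both LF values lay below both MF values in total mRNA.

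Polysome mRNA was not a scaled copy of total mRNA for these genes, and relative to the median gene 64 of 66 members differed with the same sign at both doses. The doses went together about as closely over all 2217 genes (r = 0.97) as over the members (r = 0.97), so this is not particular to the members. At the shared cytosines 12 members were called higher in polysome than in total mRNA at 1.5 µM and at 10 µM folic acid under each of the 4 ways of setting the scale between libraries, namely Rpl6l, Rpl8, Rpl9, Rpl30, Rpl34, Rpl36, Rpl37a, Rpl38 and Rpl41 of the large subunit and Rps9, Rps21 and Rps23 of the small subunit. Another 5, all of the small subunit, were called lower at both doses under each scale, namely Rps12, Rps25, Rps26, Rps27l and Rpsa. By the same rule 25.7% of all 2217 genes were higher and 8.39% lower, so that neither count of members exceeded the background. The 2 comparisons share no library. Over all listed cytosines 6 of the 12 (Rpl30, Rpl34, Rpl41, Rpl6l, Rpl9 and Rps23) and 2 of the 5 (Rps12 and Rps26) were not called in that direction at either dose. Of these, Rps23 had listed differences of -0.19 and -0.38 and Rps12 of 1.55 and 1.85, opposite in sign to the shared positions.

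Rpl9, a large subunit protein, had the largest difference at the shared cytosines. Its coverage at 8 shared positions, scaled to the median gene, reached 1019 and 918 for LF, 816 and 897 for MF, 4373 and 7286 for pLF and 7283 and 6891 for pMF. All 4 polysome values lay above all 4 total values. The difference was 2.55 on the log2 scale at 1.5 µM (5.84-fold, SE 0.20, adjusted p = 1.47e-06) and 3.05 at 10 µM (8.28-fold, SE 0.20, adjusted p = 3.73e-07). The difference was not seen over all listed cytosines of the gene, where the medians were 375 and 587 reads in LF, 333 and 385.5 in MF, 177 and 587.5 in pLF and 292.5 and 251 in pMF, and the listed differences of 0.05 and 0.52 did not pass. Rpl38, a 60S protein known for its part in the translation of Hox mRNAs, had 725 and 795 in LF, 690 and 685 in MF, 2268 and 3561 in pLF and 3224 and 2539 in pMF. Rpl34, the shallowest of the 61 members above, had 568 and 507 in LF, 431 and 452 in MF, 1233 and 2361 in pLF and 1993 and 1799 in pMF. For both genes every polysome library lay above every total library, with differences of 1.90 (3.74-fold) and 2.06 (4.16-fold) for Rpl38 and 1.67 (3.18-fold) and 2.10 (4.29-fold) for Rpl34 at the low and the medium dose. Over listed cytosines Rpl38 was called as well, but Rpl34, at 0.67 and 0.69, was not (adjusted p = 0.384 and 0.381). Rpl36 (1.66 and 1.85) and Rps23 (1.35 and 1.60), proteins of the 60S and the 40S subunit, completed the 5 largest at each dose.

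The members called lower came from both subunits, but the 5 called lower at both doses under every scale were 40S proteins. Large subunit members were called lower under every scale at 1 dose only, among them Rpl37 and Rpl7 at 1.5 µM. Rps27l, a paralog of Rps27 known as a p53 target, had 11979 and 13061 in LF and 10722 and 12900 in MF, against 2173 and 2639 in pLF and 2086 and 2104 in pMF. Its difference was -2.39 (5.22-fold lower, SE 0.14, adjusted p = 2.23e-07) at 1.5 µM and -2.49 (5.61-fold lower) at 10 µM. Rpsa, the 40S protein also described as the laminin receptor, had 10365 and 10796 in LF, 14266 and 11788 in MF, 1697 and 2541 in pLF and 2448 and 2316 in pMF. Rps25, a 40S protein needed by several viral internal ribosome entry sites, had 14446 and 15442 in LF, 17462 and 15412 in MF, 3670 and 4884 in pLF and 4408 and 3895 in pMF. In each of these 3 genes the polysome values were below every total value, with log2 differences of -2.35 (5.09-fold lower) and -2.45 (5.45-fold lower) for Rpsa and -1.82 (3.53-fold lower) and -1.99 (3.96-fold lower) for Rps25 at 1.5 and 10 µM. Rps26, found at the mRNA exit channel of the 40S subunit, differed by -1.43 (2.70-fold lower) at 10 µM. Rps12 differed by -1.47 and -1.41 at its single shared position, with 775 to 795 reads in total and 241 to 328 in polysome libraries, and Rpl7 of the large subunit by -1.40 at 1.5 µM.

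**Figure D1:**
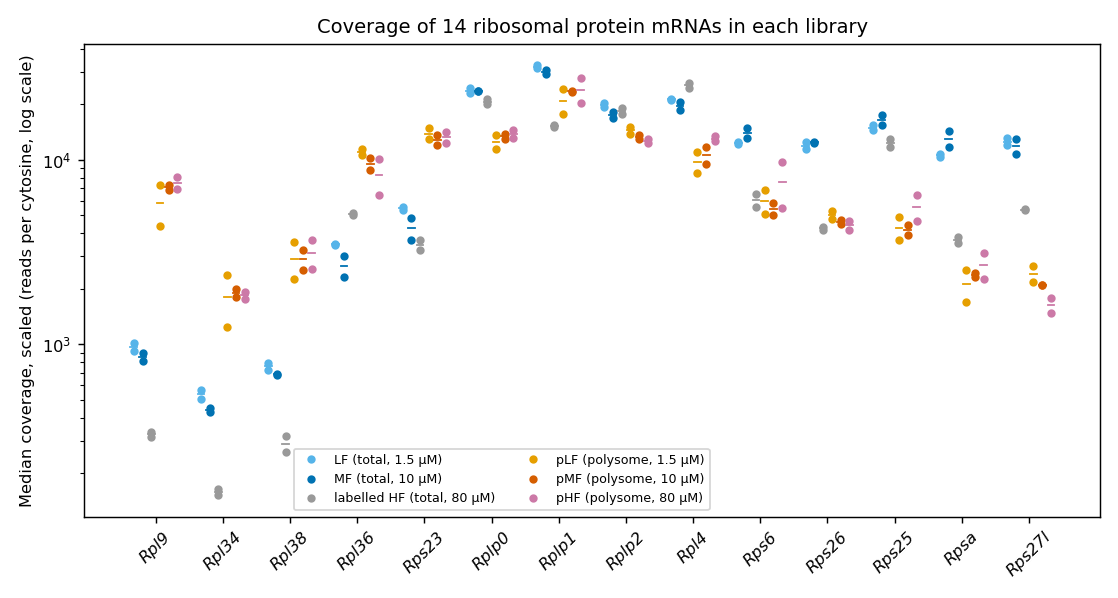
Median coverage at the shared cytosines of 14 ribosomal protein mRNAs, scaled to the median gene of each library (reads per cytosine, log axis); each point is 1 library, 2 per group, and short lines are group means. Rpl9, Rpl34 and Rpl38 sit higher in every polysome library than in every total library, and Rps27l, Rpsa and Rps25 sit lower.

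Counted over all members, the split between higher and lower depended on the scale. Relative to the median gene, 52 of 66 members were called at the shared cytosines at 1.5 µM (15 higher, 37 lower), where 65.8% of all genes were called (29.6% higher, 36.1% lower), and 52 at 10 µM (15 higher, 37 lower), where 66.6% were (28.6% higher, 38% lower). Their median difference was -0.45 at 1.5 µM against -0.09 for all genes and -0.46 at 10 µM against -0.13. With quantile normalization 41 (19 higher, 22 lower) and 43 (22 higher, 21 lower) were called, with summed nuclear coverage as the scale 39 (26 higher, 13 lower) and 43 (32 higher, 11 lower), and with the listed medians as the scale 27 (20 higher, 7 lower) and 28 (20 higher, 8 lower). These scales moved the median of all genes by 0.10, 0.61 and 0.56 at 1.5 µM and by 0.12, 0.74 and 0.56 at 10 µM. Their counts stand without the share of all genes called under the same scale, so they are not a result about the members. Relative to that median, the members' median stood at -0.35 to -0.14 at 1.5 µM and at -0.33 to -0.098 at 10 µM across the scales. Of the called members, 39 of 52 and 36 of 52 kept their sign under every scale. Across genes the differences of the 66 members at 1.5 and 10 µM had r = 0.97 and a Spearman rho of 0.95 (r = 0.97 over all 2217 genes), as a description over genes that share libraries and scale. The difference between doses, (pLF - LF) - (pMF - MF), was called for 0 members by either measure, against 0.0102% of all genes over listed cytosines and 0% at the shared ones, and for 1 member without pLF replicate 2.

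**Figure D2:**
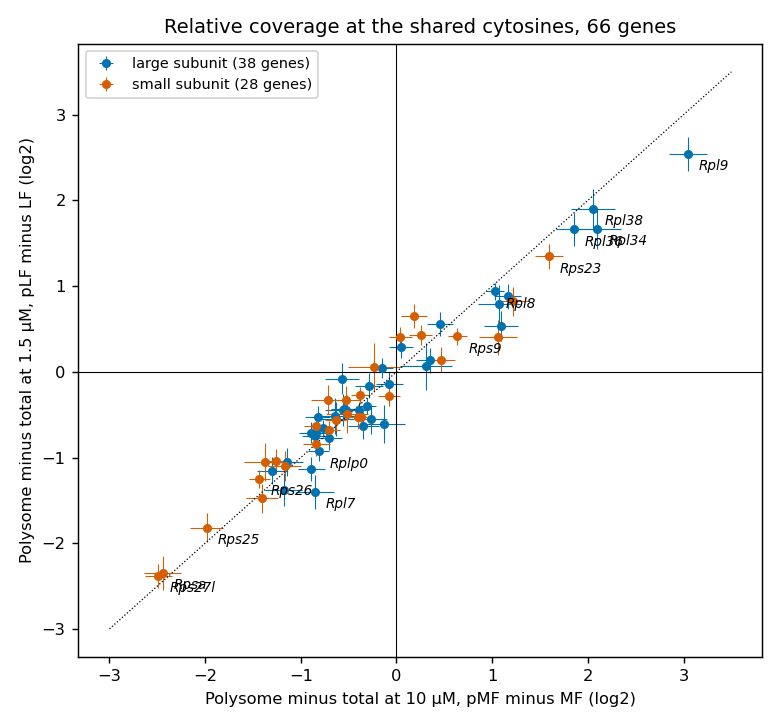
Polysome minus total relative coverage at the shared cytosines at 10 µM (x axis) and 1.5 µM folic acid (y axis), log2 scale, for 66 ribosomal protein genes; bars are standard errors of the limma fit. The points lie along the diagonal from Rps27l and Rpsa (near -2.4) to Rpl9 (2.55 and 3.05).

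Over all listed cytosines fewer members were called. At 1.5 µM they were 24 of 79 (14 higher, 10 lower), where 12.5% of all genes were called (7.17% higher, 5.34% lower), and 24 at 10 µM (15 higher, 9 lower), where 11.8% were (7.12% higher, 4.67% lower). The members' medians were 0.26 and 0.31, opposite in sign to the shared cytosines. Calls in the same direction by both measures were 16 at 1.5 µM and 17 at 10 µM, with Rpl36, Rpl37a, Rpl38, Rpl8, Rps21 and Rps9 higher and Rpl37, Rpl6, Rpl7, Rps25, Rps27l, Rps6 and Rpsa lower at both doses, while Rpl23 at 1.5 µM was called higher over listed cytosines (4.47) and lower at the shared ones (-0.55). Apart from Rpl23 at 1.5 µM, the largest listed differences were those of Rpl27 (3.26 and 3.30), Rps29 (2.87 and 2.93), Rpl24 (2.67 and 3.14) and Rpl38 (2.67 and 2.64), with Rps16 at 2.06 for the medium dose, and in the other direction those of Rpl6 (-2.93 and -2.73), Rpsa (-2.67 and -2.65), Rps25 (-2.33 and -2.88), Rps27l (-2.28 and -2.09) and Rps27rt (-1.74 and -2.20). Rpl27, Rps29, Rpl24, Rps16 and Rps27rt have no shared cytosine, so their differences rest on the listed medians alone. These medians move with the listing, and Rps29 had 4 and 10 such cytosines in MF but 18 and 68 in pMF. Rps27rt had 38 and 70 in MF and 5 and 7 in pMF. Quantile normalization turned these counts to 30 (13 higher, 17 lower) and 29 (15 higher, 14 lower), and summed coverage gave 23 (17 higher, 6 lower) at 10 µM. Leaving out 1 library gave 8 to 25 called members at 1.5 µM and 8 to 16 at 10 µM over listed cytosines, and 42 to 52 and 43 to 48 at the shared ones. Fitted on the groups compared alone, the listed counts were 5 at 1.5 µM and 28 at 10 µM. Without the HF-labelled libraries and pHF replicate 2 the counts were 26 and 22 over listed and 52 and 55 over shared cytosines.

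Among the members with special roles, the stalk proteins Rplp0, Rplp1 and Rplp2, which recruit elongation factors to the 60S subunit, passed as lower in 5 of 6 comparisons at the shared cytosines, where 36.1% and 38% of all genes were lower at 1.5 and 10 µM, and in 0 of 6 over listed ones. Rplp0 differed by -0.93 and -0.81 at the shared cytosines, with 23039 to 24442 reads in LF and MF and 11417 to 13872 in pLF and pMF. Rplp1 differed by -0.63 at 1.5 µM (adjusted p = 0.00482) and by -0.35 at 10 µM (adjusted p = 0.0749), and Rplp2 by -0.45 and -0.40 (adjusted p = 0.002 and 0.00441). Over listed cytosines Rplp0 had -0.44 and -0.32 (adjusted p = 0.192 and 0.345), Rplp1 0.36 and 0.34 and Rplp2 -0.31 and 0.03. With summed coverage as the scale Rplp0 did not pass at 10 µM (-0.068), and Rplp2 turned to 0.16 and 0.35 and Rplp1 to 0.40 at 10 µM. Rps6 was lower, with differences of -1.05 and -1.37 (adjusted p = 0.00163 and 0.00027), and of -1.40 and -1.43 over listed cytosines. Rpl36al, a paralog of Rpl36a, differed by -0.14 and -0.07 (adjusted p = 0.381 and 0.646), and Rpl23 by -0.55 and -0.64 (adjusted p = 0.0253 and 0.0123), with a sign that turned under other scales.

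Neither subunit moved as a block. At the shared cytosines 9 of 38 large subunit members were higher and 21 lower at 1.5 µM (10 and 20 at 10 µM), and 6 of 28 small subunit members were higher and 16 lower (5 and 17), with medians of -0.44 and -0.37 for the large and -0.51 and -0.52 for the small subunit. Of all genes 29.6% were higher and 36.1% lower at 1.5 µM and 28.6% and 38% at 10 µM, which is the background of every count at the shared cytosines in this paragraph. Over all listed cytosines the members of both subunits together leaned the other way, with 14 higher and 10 lower at 1.5 µM and 15 and 9 at 10 µM. By that measure 7.17% of all genes were higher and 5.34% lower at 1.5 µM and 7.12% and 4.67% at 10 µM. Among subunit proteins outside the symbol rule, Rack1, a 40S scaffold, differed by -1.08 and -1.28 at the shared cytosines, while Fau had no shared cytosine. Of 16 other TOP mRNAs measured at the shared cytosines, 2 were higher and 9 lower at 1.5 µM and 3 and 8 at 10 µM, with medians of -0.39 and -0.31. Over listed cytosines, of 17 tested, 1 was higher and 2 lower at 1.5 µM and 2 and 2 at 10 µM. The listed medians were 0.18 and 0.16, opposite in sign. The lower ones at the shared cytosines included Npm1, a nucleolar chaperone (-2.19 and -1.81), and Pabpc1, the poly(A)-binding protein (-1.95 and -1.84). The elongation factor Eef1a1 (-0.88 and -0.60) was also among them. Hnrnpa1, a splicing regulator, had 0.69 and 0.87 and passed at 10 µM only. Of 5 regulators of TOP mRNAs at the shared cytosines, Eif4ebp1, an inhibitor of the cap-binding protein eIF4E, was higher (1.95 and 2.06), and 4 were lower, among them Larp1 (-1.86 and -1.31). Over listed cytosines Eif4ebp1 (1.05 and 1.14) and Pabpc1 (-2.63 and -2.35) were called at both doses. By that measure Larp1 (-0.14 and -1.21), Npm1 (-1.10 and -1.11) and Eef1a1 (-0.34 and -0.07) were called at neither. These lists were counted relative to the median gene, without a test of the list.

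Many members had a pyrimidine run near the annotated start. In RefSeq promoter sequences, 34 of 62 members (54.8%) had an unbroken run of at least 8 C or T on the gene strand within 30 bases of the annotated start, against 6965 of 27025 genes (25.8%), and a match is a description of these letters, not of a start site in use. The runs are shown for genes named above that were higher (Rpl34, Rpl38) or lower (Rps25, Rps26, Rps27l) in polysome mRNA and for the S6 kinase substrate Rps6, in capitals with 4 bases on each side, 5′ to 3′ on the gene strand, in GRCm38.p6.
Rpl34, chr3:130730331-130730358 (-): cccgCCCCTTCCTTTTCCTCTTCCgggg
Rpl38, chr11:114668574-114668591 (+): ctcgTTCTTTCCCCgttc
Rps25, chr9:44407688-44407709 (+): cgggCTTCCTTTTTTTCCgaca
Rps26, chr10:128626491-128626507 (-): cggaTCCTCTTTCgagt
Rps27l, chr9:66946060-66946076 (+): tccaCTCCTCTCCactc
Rps6, chr4:86857355-86857372 (-): cgggCCTCTTTTTCgtga
Among the genes shown, runs of this kind were present near the annotated start in members of both directions. Those of Rps25 (14 bases) and Rps27l (9 bases) begin at position -22 and end before the annotated start, so they lie outside the annotated mRNA. A second run of Rpl34 (8 bases) is not shown. Of the 12 members called higher at both doses under every scale, a run was listed for Rpl34, Rpl38 and Rps9 only. Of the 5 called lower by that rule, Rps12, Rps25, Rps26 and Rps27l had one. No such run was listed in this window for Rpl6l, Rpl8, Rpl9, Rpl30, Rpl36, Rpl37a, Rpl41, Rps21, Rps23 or Rpsa. Only 62 members were searched.

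Coverage along the mRNA differed between the pools. With each transcript cut into 5 equal parts, the coverage of the last part relative to the whole mRNA had a median over 31 members of -0.87 to -0.60 log2 units in the total libraries and of -0.16 to -0.03 in the polysome libraries, while that of the first part, over 33 members, was -0.99 to -0.32 in all 12. With the middle 3 parts alone, all 49 called members with such cytosines kept their sign at 10 µM and 45 of 49 did at 1.5 µM, the exceptions including Rpl11 and Rpl23. Across genes, the polysome difference at 1.5 and 10 µM had a Spearman rho of -0.10 and -0.15 with the coding length (65 members) and of 0.038 and -0.017 with the share of copied sequence (64 members), as a description.

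The HF-labelled libraries differed from MF at many members and in both directions. At the shared cytosines 50 of 66 members were called (13 higher, 37 lower), where 69.6% of all genes were (30.5% higher, 39.2% lower), and the members' median was -0.60 against -0.12. Over all listed cytosines 15 of 79 were called (6 higher, 9 lower), where 6.05% of all genes were (3.63% higher, 2.42% lower), and without MF replicate 1 the count was 0. Rps21, a small 40S protein, had scaled coverages of 12749 and 12899 in the HF-labelled libraries and 2587 and 3562 in MF (2.08, 4.22-fold, SE 0.17, adjusted p = 1.77e-06). Rpl7a, a 60S protein, had 1156 and 1524 against 7354 and 6076 (-2.33, 5.03-fold lower, SE 0.18, adjusted p = 1.05e-06). For both genes the groups did not overlap. Rps28 (1.77), Rpl37a (1.20) and Rpl36 (0.95) were among the next higher ones, and Rpl13 (-2.15), Rpsa (-1.82), Rpl30 (-1.70) and Rpl41 (-1.64) the next lower ones. Over listed cytosines Rps21 (2.33), Rps28 (2.04), Rps16 (1.85), Rpl37a (1.57) and Rps29 (1.44) led in one direction and Rpl30 (-3.66), Rpl41 (-2.04), Rps20 (-1.45), Rpl11 (-1.33) and Rps26 (-1.29) in the other. Of these, Rps16 and Rps29 have no shared cytosine. Of the 50 calls, 49 kept their sign under every scale and Rps18 turned. With summed coverage as the scale 19 members were called over listed cytosines (5 higher, 14 lower). Of 4 neural stem cell markers with shared cytosines, Fabp7, Nes and Slc1a3 were also lower in the HF-labelled libraries, and their part in the result was not tested.

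In polysome mRNA no such calls were made at 80 µM. Between pHF and pMF 0 members passed by either measure, against 0.0102% of all genes over listed and 0.451% at the shared cytosines (0.316% higher, 0.135% lower), with or without pHF replicate 2. Rps21 had 6992 and 5923 in pHF and 6622 and 7523 in pMF, and Rpl7a 4106 and 5196 in pHF and 5086 and 4001 in pMF, so both genes overlapped between the doses. Set against the HF-labelled libraries, which also served in the comparison with MF, pHF had 47 of 66 members called at the shared cytosines (27 higher, 20 lower), where 70.7% of all genes were (35.5% higher, 35.2% lower), and 27 of 79 over listed ones (22 higher, 5 lower), where 14.1% were (7.42% higher, 6.66% lower). Fitted on the groups compared alone, the listed count was 11. Summed coverage gave 47 (43 higher, 4 lower) and 40 (37 higher, 3 lower), the listed medians as the scale 35 (24 higher, 11 lower) at the shared cytosines, and quantile normalization 27 (16 higher, 11 lower) over listed ones. Rpl9 again led (4.53, 23.1-fold, adjusted p = 2.54e-08), with 316 and 332 in the HF-labelled libraries and 6948 and 8065 in pHF, followed by Rpl34 (3.54), Rpl38 (3.42), Rpl13 (2.71) and Rpl41 (2.70). The lower ones included Rpl7 (-1.89), Rps27l (-1.73), Rps25 (-1.17) and Rps12 (-1.06). Over listed cytosines the leading differences were those of Rpl9 (4.13), Rpl24 (3.95), Rpl30 (3.72), Rpl27 (3.65) and Rpl38 (3.28), and those of Rps27rt (-2.85), Rps25 (-1.85), Rps27l (-1.82), Rpl7 (-1.45) and Rpl18 (-0.94). Of these, Rpl24, Rpl27 and Rps27rt have no shared cytosine. The listed medians of Rpl9 were 300.5 reads in pHF replicate 1 and 8311.5 in pHF replicate 2, against 76 and 93 in the HF-labelled libraries. Without pHF replicate 2 its listed difference was 2.28 and not called (adjusted p = 0.0596), nor was that of Rpl30 (3.10, adjusted p = 0.093). Without either HF-labelled library Rpl9, Rps25 and Rpl18 were not called over listed cytosines, and without pHF replicate 1 Rps25 (-1.02) and Rpl18 were not.

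Levels of unconverted reads were low across the ribosomal protein mRNAs. Of the 7686 to 10505 member cytosines with a coverage of at least 20 in a library, 96.97% to 99.6% had a level below 5%, and 0.763% and 0.687% reached 10% in the HF-labelled libraries against 0.0647% to 0.323% elsewhere. Over the cytosines of all genes 0.651% and 0.589% reached 10% in the HF-labelled libraries and 0.121% to 0.832% elsewhere. At cytosines below 5% the share of unconverted reads was 0.0883% to 0.0915% in LF and MF, 0.133% to 0.139% in the HF-labelled libraries and 0.0775% to 0.124% in polysome libraries. Tested per gene and relative to the median gene, 0 members differed between LF and MF, against 0% of all genes, or between pLF and pMF, against 0.0102%. Polysome and total mRNA differed for 16 members at 1.5 µM (2 higher, 14 lower), against 27.5% of all genes (14.3% higher, 13.2% lower), and for 26 at 10 µM (1 higher, 25 lower), against 28.8% (14% higher, 14.8% lower). Without the centring these were 11 higher and 5 lower, and 18 higher and 8 lower, and at the shared cytosines 0 members were called at either dose. The medians of all genes moved by 0.61 and 0.77 log2 units with the centring.

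A site was counted where coverage was at least 20, the level at least 10% and the unconverted reads at least 6 in both libraries of a group. Among the members 0 sites passed in LF, MF and pLF, 1 in pMF, 2 in pHF and 18 in the HF-labelled libraries, which made 19 distinct cytosines. Over all nuclear genes 1162 sites passed in LF, 1439 in MF, 1625 in pLF, 976 in pMF, 862 in pHF and 2565 in the HF-labelled libraries. The cytosine in Rpl23, a 60S protein, passed in pMF, pHF and the HF-labelled libraries, and the one in Rpl34 in pHF. They are printed with 10 bases on each side on the gene strand and the cytosine in capitals. Each lies in coding sequence, in exon 2 of Rpl23 and exon 3 of Rpl34.
Rpl23, chr11:97781822 (-): ctgtgatcaaCtgtgcagaca
Rpl34, chr3:130729132 (-): cccctggcaaCaggattgttt
The 21 bases occur at 2 loci of the genome for Rpl23 and at 11 for Rpl34, and the part of reads from copies was not tested.

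At the Rpl23 cytosine the unconverted share was higher in pLF and pMF than in LF and MF, and lower in pHF than in the HF-labelled libraries. The values were 7.85% and 8.83% in LF (95% Wilson intervals 7.48% to 8.23% and 8.46% to 9.21%), 7.37% and 7.29% in MF, 9.72% and 12.1% in pLF and 10.8% and 13.02% in pMF, from 5298 to 22106 reads per library. It was 15.6% and 14.2% in the HF-labelled libraries and 12.3% in both pHF libraries. Total LF and MF averaged 7.83% ± 0.709 (SD, n = 4) and pLF and pMF 11.4% ± 1.44 (SD, n = 4), a difference of 3.57 percentage points without overlap. The Rpl34 cytosine had 3.40% and 2.20% in LF, 2.23% and 2.61% in MF, 5.11% and 11.5% in pLF and 9.30% and 9.27% in pMF, from 259 to 1264 reads, and 8.73% and 8.75% in the HF-labelled libraries and 11.8% and 12.6% in pHF. The means were 2.61% ± 0.556 and 8.78% ± 2.66 (SD, n = 4), a difference of 6.17 percentage points, again without overlap. Both sites were chosen after their values were seen and for passing the level filter in polysome groups, so these differences are a description without a test, and the intervals cover counting error only. In the site test on pooled reads (Fisher's exact test), the Rpl23 cytosine was the only member site tested between pMF and MF, where 55.9% of all sites were called (46.5% higher, 9.4% lower). It entered by passing in pMF and lay 4.71 points higher there, beside a median of 5.11 points over all sites tested. Thus a rise of this size is not particular to Rpl23. Limma over the libraries, with or without a replicate block, did not call it. Between pLF and pMF it was not called (-0.69 points, adjusted p = 0.522), where 4.06% of all sites were, and between pHF and pMF neither site was (0.25 points and 3.13 points), where 9.1% were. No member site entered the test between LF and MF, where 1.09% of all sites were called, or between pLF and LF, where 54.9% were (50% higher, 4.95% lower).

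**Figure D3:**
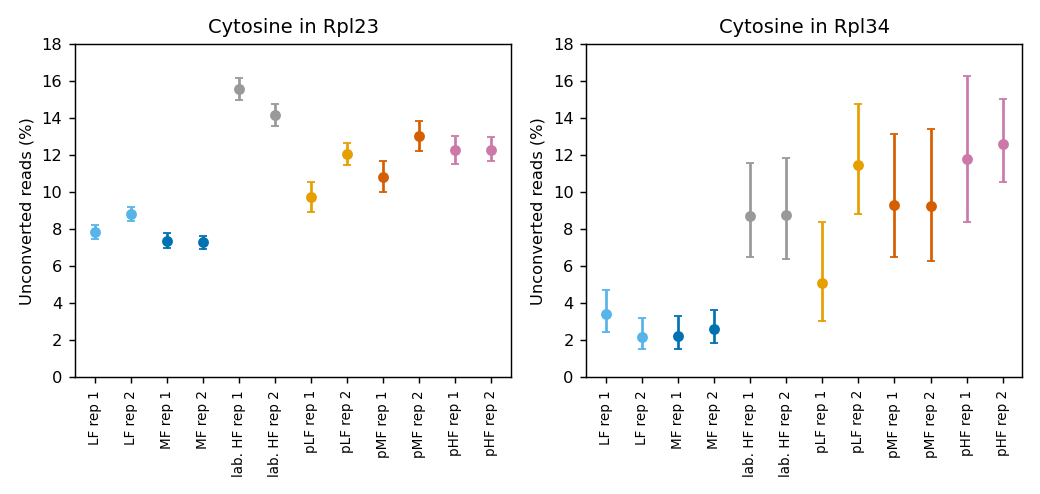
Unconverted reads (%) at 1 cytosine of Rpl23 and 1 of Rpl34 in each of the 12 libraries, with 95% Wilson intervals. The 4 pLF and pMF libraries lie above the 4 LF and MF libraries at both positions, 9.72% to 13.02% against 7.29% to 8.83% in Rpl23 and 5.11% to 11.5% against 2.20% to 3.40% in Rpl34.

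A further 15 cytosines described here passed only in the HF-labelled libraries. They lay in 14 genes, 11 in coding sequence, 3 in 3′ UTRs and 1 in an exon of the pseudogene Rpl6l. The 21 bases around the cytosine occur at 1 locus of the genome for 4 of these positions and at several loci for 11, with at most 15 loci. The part of reads from copies was not tested, so these levels may not be those of the named gene alone. In the other 10 libraries these positions gave 150 values, of which 51 were not listed, 95 were below 5% and 4 were at 5% or more, namely both Rpl37 positions in LF replicate 2 and MF replicate 2. Levels are given as the mean ± SD of the 2 HF-labelled libraries. In the large subunit, Rpl37a (chr1:72712212) had 56.7% ± 1.23, Rpl11 (chr4:136050302) 44.1% ± 1.72 and Rpl4 (chr9:64177013) 21.0% ± 3.19. Of the Rpl37 positions, chr15:5118608 had 46.6% ± 0.40 from 1375 and 1053 reads and chr15:5118611 had 27.0% ± 8.94 from 29 and 21 reads. Rplp1 (chr9:61913342) had 49.0% ± 12.8 from 20 and 31 reads. Rpl6l (chr10:111126292) had 57.9% ± 14.5 from 22 and 21 reads. Rpl22 (chr4:152332646), in the 3′ UTR, had 27.6% ± 3.16, Rpl36a (chrX:134587939) 11.7% ± 2.13 and Rpl3 (chr15:80081756) 11.4% ± 1.16. In the small subunit, Rps18 (chr17:33952073) had 34.9% ± 6.76, Rps12 (chr10:23785618) 18.8% ± 2.64 and Rps25 (chr9:44410021) 15.8% ± 3.09, all in coding sequence. In 3′ UTRs, Rps20 (chr4:3834223) had 41.8% ± 3.17 and Rps24 (chr14:24495836) 12.4% ± 1.42. Of these positions 7 were listed in both MF libraries, where the Rpl37 positions had 4.51% ± 3.72 and 5.6% ± 4.20, and the others had 0.399% ± 0.240 for Rpl22, 0.338% ± 0.116 for Rpl36a, 0.0883% ± 0.0142 for Rpl4, 0.268% ± 0.0482 for Rpl3 and 0.536% ± 0.330 for Rps18.

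**Figure D4:**
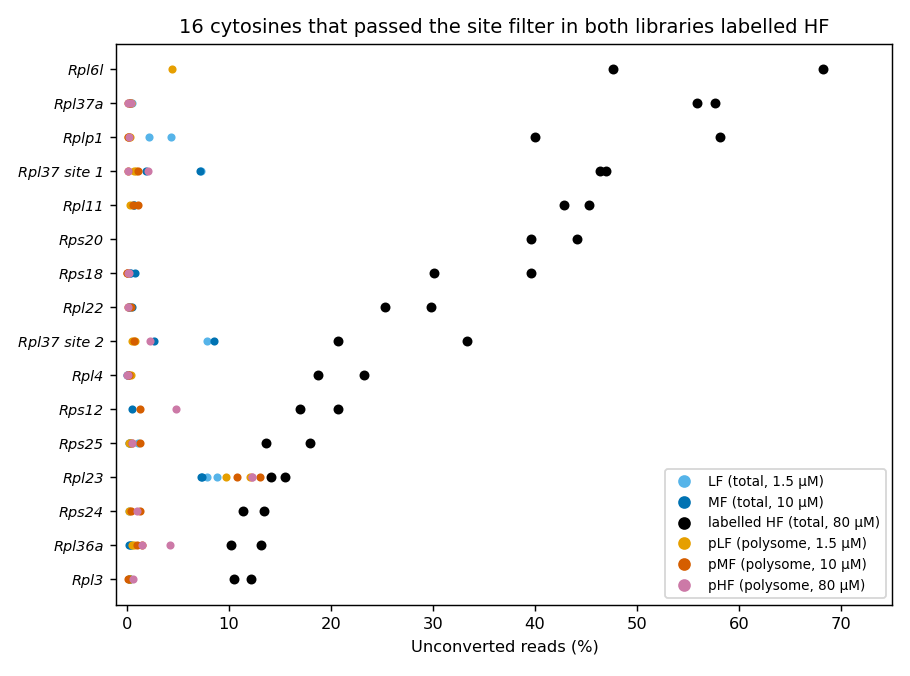
Unconverted reads (%) at 16 cytosines of ribosomal protein mRNAs that passed the site filter in both HF-labelled libraries (black), with every other library in which the position was listed. Apart from Rpl23, points of the other libraries lie below 5% with 4 exceptions, all in Rpl37, the highest being 8.57%.

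The letters before most of these cytosines were rich in G. Those with the highest read counts are shown with 10 bases on each side on the gene strand and the cytosine in capitals.
Rpl37a, chr1:72712212 (+): gccggtggggCctggacctac
Rpl37, chr15:5118608 (+): cccaagagggCagctgtcgca
Rps18, chr17:33952073 (-): gccgcaggggCcgaactgtgg
Rpl4, chr9:64177013 (+): gcgcagggggCcctgcatcat
Rpl3, chr15:80081756 (-): gtcgtggaggCtgtgaccatt
Rpl22, chr4:152332646 (+): ggctagggggCtgcatctgac
At least 2 of the 3 bases before the cytosine were G at 16 of all 18 member sites that passed in the HF-labelled libraries. These were 1 of the 3 that reached 5% in an MF library, which are the Rpl23 position and both Rpl37 positions, and 15 of the 15 that were below 5% or not listed in MF. The same was found at 2021 of 2351 sites of other genes that were below 5% or not listed in MF (86.0%). It was also true of 1552 of 7811 member cytosines below 5% (19.9%) and of 40 of 196 sites of other genes that reached 5% in MF (20.4%). Of the member sites, 8 were covered in all 4 HF-labelled and MF libraries, and all 8 lay higher in the HF-labelled ones, among them Rpl37 by 42.1 points and Rpl23 by 7.58 points. All 8 were called on pooled reads, where 88.3% of all sites were (64.2% higher, 24% lower). Of the 7 covered in pHF and the HF-labelled libraries 6 lay lower in pHF and Rpl34 lay 3.68 points higher, and all 7 were called, where 66.2% of all sites were (35.7% higher, 30.5% lower). A site entered by reaching 10% in one of the groups, which no member site did in MF, so the filter fixed the direction against MF and bears on that against pHF, and these counts are a description.

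The members with the lowest listed coverage were almost all much copied in the genome, but not every copied member was low. For 79 coding members each 100-base window of the coding sequence was searched, after C-to-T conversion, for exact matches elsewhere in GRCm38. All windows were copied for 34 members, at least 95% for 40, under 50% for 13 and none for 3, among them Rps3 and Rps27l. The 20 members with the lowest listed coverage in MF (122.75 to 839.5 reads) included 19 with at least 95% of windows copied and 0 with under 50%. The median listed coverage in MF was 1123 reads for the 40 most copied members and 13634 for the other 39, and 13 of the 40 but 2 of the 39 had no shared cytosine. Coverage reached 21487.5 reads among the 40, in the fully copied Rpl26. Across 78 members the copied share and the MF coverage had a Spearman rho of -0.53, and of -0.32 across 64 members at the shared cytosines, as a description over genes aligned with unique reads only. Both directions of the polysome difference held copied members, with 100% of windows copied in Rpl9, Rpl38 and Rps23 and 86.5% in Rpl34 among the higher ones, and 98.6% in Rpsa and 97.8% in Rps25 among the lower ones. Less copied members stood on both sides too, Rpl8 (2.08%), Rps21 (5.33%) and Rps9 (33.7%) being higher and Rps27l (0%) lower.

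**Figure D5:**
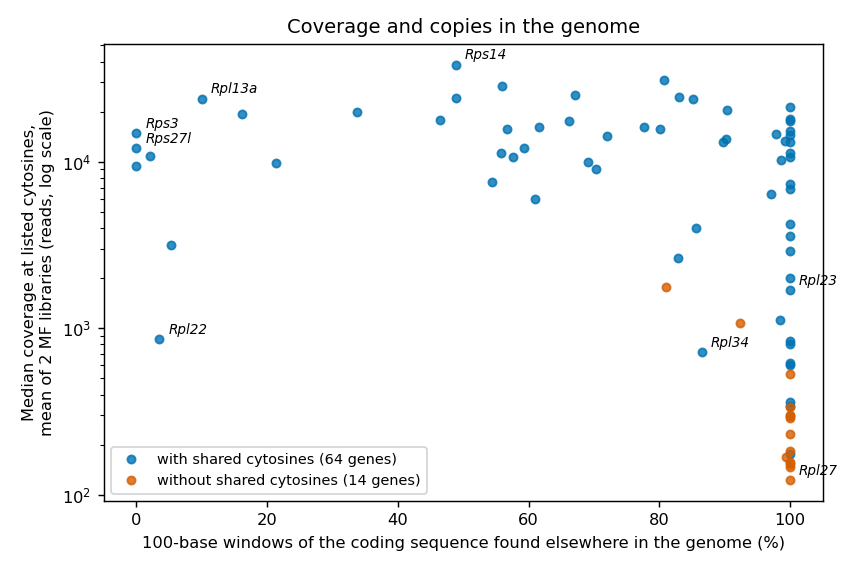
Share of 100-base coding windows with an exact C-to-T converted match elsewhere in the genome (x axis, %) and mean listed median coverage of the 2 MF libraries (y axis, reads, log scale), 1 point per ribosomal protein gene. Members below 839.5 reads lie almost all at 95% or more, while members under 50% lie above them.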

How the data were processed

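The samples were 12 RNA bisulfite libraries of mouse neural stem cells, grouped by their titles. Reads had been trimmed (fastp), placed at unique loci of mm10 (meRanGh) and turned into cytosine calls (meRanCall) by the authors, and the submitters' processing notes name R 4.1.1. For each cytosine covered by 10 or more reads, of which 1 or more was unconverted, the deposited lists give counts of all and of unconverted reads, not normalized. Its level, a fraction computed by the authors, is the unconverted count over all informative reads. Cytosines with a variant base and the deposited p-value columns of the authors' caller were not used. Because these lists give reads per position and not per gene, depth shows only as coverage.

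Genes were named as in the lists, and features came from GENCODE vM21 (GRCm38). Members, gene lists and naming rule were chosen with earlier results of these data known. Relative coverage was log2 of the median coverage over cytosines with a level below 0.05, centred on the library's median over tested genes, and was tested over all genes with limma 3.58.1 (R 4.3.3, lmFit and eBayes with trend, all 12 libraries, Benjamini-Hochberg, threshold 0.05), with edgeR 4.0.16 as an alternative. The fit at shared cytosines, its naming and its scales were added after values had been seen. The unconverted share was tested as log2 odds with a pseudocount of 0.5. Sites were tested with Fisher's exact test on pooled reads (scipy 1.17.1, Python 3.11.15). Named are up to 5 members with the largest called differences per direction and comparison, the sites described, and members of set interest (stalk proteins, Rpsa, Rps6, Rpl23, Rpl34, paralogs, the highest and lowest in MF). Some genes are not reported here. Scripts were tested on simulated data. Replicate numbers were not taken as pairs.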

Additional observations from a re-analysis of the deposited data

Results flagged for a closer look

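Polysome differences of opposite sign at different doses were found for members called in both comparisons at the shared cytosines, with every library of one comparison moving against those of the other. All of them set the 80 µM dose, which rests on the HF-labelled libraries, against another dose, and the differences between doses were not tested. Among the members reported, 183 pairs of member and dose were compared and 17 were of this kind, 8 against the low and 9 against the medium dose, and 0 lay between the low and the medium dose. By the same rule 9.2% of all 2217 genes were opposite against the low dose, 9.34% against the medium dose and 0% between the low and the medium dose, beside 8, 9 and 0 of 61 members.

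Against the low dose, values are log2 polysome minus total, first at 80 µM and then at 1.5 µM. The large subunit mRNAs of this kind were higher in polysome than in total mRNA at 80 µM and lower at 1.5 µM. They were Rpl5, a carrier of 5S rRNA, at 1.13 and -0.52, Rpl32 at 0.69 and -0.77, Rpl6 at 0.65 and -0.71, the stalk protein Rplp1 at 0.64 and -0.63 and Rpl28 at 0.36 and -0.44. In the small subunit Rps20 had 0.32 and -0.68, while Rps21 (-0.99 and 0.82) and Rps3 (-0.48 and 0.43) ran the other way.

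Against the medium dose, values are first at 80 µM and then at 10 µM. They were 1.80 and -0.57 for Rpl7a, 1.13 and -0.64 for Rpl5, 0.69 and -0.70 for Rpl32, 0.65 and -0.89 for Rpl6 and 0.36 and -0.53 for Rpl28. Rps7 had 0.80 and -0.53 and Rps20 0.32 and -0.70. The small 40S proteins Rps21 (-0.99 and 1.22) and Rps28 (-0.83 and 1.06) were lower in polysome than in total mRNA at 80 µM and higher at 10 µM. Both signs held under every scale for 8 of the 17 pairs, namely Rpl32, Rpl6, Rplp1, Rps20 and Rps21 against the low and Rpl6, Rps21 and Rps28 against the medium dose, and for 9 they did not.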

How the results depend on the processing

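The counts of called members changed with the positions used, which also changes the genes tested: at the shared cytosines they were 50 (HF-labelled minus MF), 52 (pLF minus LF), 52 (pMF minus MF) and 47 (pHF minus HF-labelled). With the groups compared alone, listed counts were 5 (pLF minus LF) and 11 (pHF minus HF-labelled), and with the listed medians as the scale shared counts were 27 (pLF minus LF) and 28 (pMF minus MF). The unconverted share gave 0 (pLF minus LF) and 0 (pMF minus MF) at the shared cytosines. Sites at a level of at least 20% numbered 4 (HF-labelled minus MF), 0 (pMF minus MF) and 3 (pHF minus HF-labelled). Counts under other scales, with libraries left out or on the groups compared alone stand without the share of all genes called under the same setting. They describe the setting and not the members.

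Leaving out 1 library gave 0 to 6 listed and 44 to 46 shared calls for HF-labelled minus MF (0 without MF replicate 1), 8 to 25 and 42 to 52 for pLF minus LF, 8 to 16 and 43 to 48 for pMF minus MF, 13 to 22 and 44 to 48 for pHF minus HF-labelled, 0 to 3 shared for pLF minus pMF and 0 to 1 for the difference between doses. For the unconverted share it gave 8 to 21 (pLF minus LF), 11 to 18 (pMF minus MF) and 0 to 1 (pLF minus pMF). For sites it gave 8 to 17 (HF-labelled minus MF), 0 to 2 (pLF minus pMF), 0 to 1 (pHF minus pMF), 0 to 11 (pLF minus LF), 1 to 3 (pMF minus MF) and 9 to 11 (pHF minus HF-labelled).

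With the replicate number as a block the Rpl23 site between pMF and MF was not called (0 sites), as in limma without the block (0 sites), and no other count moved beyond 1.5 times. The numbers were not shown to pair the libraries (r of deviations -0.42 to 0.21 at the shared cytosines), and with crossed numbers as a block HF-labelled minus MF had 50 calls and pHF minus pMF 0.

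Of 1334 alternatives for named genes 23 turned the sign. At 1.5 µM Rpl23 ran from -0.55 (shared) to 0.058 (summed coverage), 0.0064 (listed medians as the scale) and 4.47 (all listed), Rplp1 from -0.63 to 0.36 and Rplp2 from -0.45 to 0.16 and 0.11, and Rpl36al reached 0.47. At 10 µM Rpl23 ran from -0.64 to 0.11 and 0.82, Rplp2 from -0.40 to 0.15 (quantile), 0.35, 0.17 and 0.029, Rplp1 from -0.35 to 0.40 and 0.34, and Rpl36al reached 0.67. Over all listed cytosines Rps12 had 1.55 and 1.85 and Rps23 -0.19 and -0.38. The cause was not tested.

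Groups of 2 libraries, a listing that requires an unconverted read and unique alignment of much copied genes limit these values. Only 66 of 87 members have a shared cytosine, and whether coverage was capped was not tested.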

Other observations

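The mitochondrial ribosomal proteins, which build the separate ribosome of mitochondria from nuclear genes, were called in both directions. Of 20 measured at the shared cytosines, 11 were higher and 4 lower in pLF than in LF, with a median of 0.51 on the log2 scale, and 11 were higher and 5 lower in pMF than in MF, with a median of 0.45, beside -0.09 and -0.13 for all genes. Of all genes 29.6% were higher and 36.1% lower at 1.5 µM and 28.6% and 38% at 10 µM. Over all listed cytosines 13 of 76 were higher and 1 lower at 1.5 µM and 12 higher and 2 lower at 10 µM, with medians of 0.80 and 0.66, beside 7.17% and 5.34% of all genes at 1.5 µM and 7.12% and 4.67% at 10 µM. Among 8 ribosome assembly factors with shared cytosines, 4 were higher and 2 lower at 1.5 µM and 4 higher and 1 lower at 10 µM. Eif6, which keeps free 60S subunits apart from the 40S subunit, had 1.34 and 1.49, and the nucleolar protein Ncl had -1.44 and -1.10. Tpt1, a growth-related TOP mRNA, had -1.19 and -0.99, Nap1l1, a histone chaperone, -1.48 and -1.32, and Btf3, a subunit of the nascent polypeptide-associated complex, 0.67 and 0.43. These counts are relative to the median gene of a library, and none of these lists was tested against other genes.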
